A study of Mus musculus with 8 samples.

Results

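The genes described here are 10 interferon-induced antiviral effectors, namely Ifit1, Ifit2, Ifit3, Oas2, Oas3, Oasl1, Oasl2, Isg15, Rsad2 and Rtp4, out of 37620 gene IDs counted in each library. They were chosen by name for their rise with hnRNPU hairpin 1, so their values in that library are given as a description without a test. All 10 were matched to an Ensembl ID, and all 10 were among the 15355 genes tested. The filter on low counts was passed by 4 of them, Ifit3, Oas2, Oasl1 and Rtp4, only through hnRNPU hairpin 1. Without that library, 6 remained in the test.

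Ribosomal RNA-depleted RNA was sequenced from erythroid progenitors, which give rise to red blood cells, magnetically sorted from livers of C57BL/6 mouse embryos at E14.5, transduced, and kept for 24 h with erythropoietin. The 8 libraries formed 6 groups: hnRNPU_sh (hairpins 1 and 2, 1 library each), with hnRNPU_shCTL as its 1 control hairpin library; Bloodlinc_sh (hairpins 1 and 2, 1 library each), with its own 1 control, Bloodlinc_shCTL; and Bloodlinc_vector, 1 library, against Empty_vector, 1 library. Hnrnpu encodes hnRNP U, a protein that binds RNA in the nucleus, and Bloodlinc is a long noncoding RNA. All cells had been transduced, the controls included, and no untransduced library was analysed here. The labels do not say whether libraries came from separate cultures or pools of embryos, so p-values reflect nothing beyond the scatter among these samples, which may be technical. In bulk RNA, a change in the share of cells of a type and a change in RNA per cell cannot be told apart.

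Type I and type III interferons are secreted proteins that a cell makes after its sensors detect viral RNA or DNA. They bind receptors whose kinases activate transcription factors that bind a DNA element, the interferon-stimulated response element, in front of many genes. The products of those genes block viruses in different ways. Ifit proteins bind viral RNA and hold back its translation. Oas proteins sense double-stranded RNA and, where they keep the enzyme activity, make short oligoadenylates. Isg15 is a ubiquitin-like protein that is joined to other proteins, and Rsad2 (viperin) is a radical SAM enzyme that makes a chain-terminating nucleotide.

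The genes lie in clusters, and coordinates here are on GRCm38. On chromosome 19, plus strand, Ifit2 (chr19:34550694-34576419) is followed by Ifit3 (chr19:34583531-34588731) after 7.11 kb, and by Ifit1 (chr19:34640871-34650009) another 52.1 kb on. On chromosome 5, Oas2 (chr5:120730333-120749853) and Oas3 (chr5:120753098-120777661) lie 3.25 kb apart on the minus strand, and Oasl2 (chr5:114896936-114912234) and Oasl1 (chr5:114923240-114937915) lie 11.006 kb apart on the plus strand. Isg15 (chr4:156199424-156200818, minus strand), Rsad2 (chr12:26442746-26456452, minus strand) and Rtp4 (chr16:23520291-23614222, plus strand) stand alone.

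Promoter windows of RefSeq (GRCm38.p6), running over 300 bases with 250 before the start site and 50 after it, were available for 8 of the 10 genes, all but Oas2 and Rtp4. The core of the interferon-stimulated response element was searched on both strands as GAAA, any 2 bases, then GAAA. It was present in windows of 5 genes, Ifit1, Ifit3, Oas3, Isg15 and Rsad2, and absent from those of Ifit2, Oasl1 and Oasl2, against 3.99% of 27025 genes with a window. A match is a string of letters, not a bound site. The stretches below hold the matches, in capitals, and show which letters these genes have in common before their start sites. Each is written 5′ to 3′ in the direction of its gene, so a match on the opposite strand reads TTTC, any 2 bases, then TTTC.
Ifit1: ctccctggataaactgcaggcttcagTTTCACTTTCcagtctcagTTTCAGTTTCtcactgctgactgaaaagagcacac
Ifit3: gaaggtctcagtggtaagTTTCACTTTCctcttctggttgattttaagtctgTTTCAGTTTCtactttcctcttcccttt
Oas3: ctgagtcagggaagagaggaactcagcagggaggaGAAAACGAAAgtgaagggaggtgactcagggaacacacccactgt
Isg15: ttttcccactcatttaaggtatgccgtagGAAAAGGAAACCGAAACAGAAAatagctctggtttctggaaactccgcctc
Rsad2: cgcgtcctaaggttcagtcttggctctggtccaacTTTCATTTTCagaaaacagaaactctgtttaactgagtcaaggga

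The Ifit1 stretch (chr19:34640759-34640838, plus strand) has 2 matches, starting 104 and 85 bases before the start site. The Ifit3 stretch (chr19:34583355-34583434, plus strand) also has 2, at 156 and 122 bases. The Oas3 stretch (chr5:120777690-120777769, minus strand) has 1 at 75 bases, and the Rsad2 stretch (chr12:26456528-26456607, minus strand) has 1 at 120 bases. The 3 matches of Isg15 (chr4:156200846-156200925, minus strand) overlap each other, at 78, 72 and 66 bases. The window of Ifit3b, a near-identical copy of Ifit3 that lies between it and Ifit1, holds the same 80 letters as the Ifit3 stretch, at chr19:34607751-34607830. The gamma-activated element, searched as TTCNNNGAA, which reads the same on both strands, was found in 1 window of Ifit2 alone among these genes, against 9.55% of all genes.

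The hnRNPU hairpin libraries were shallow. Counts in genes came to 2931627 with hairpin 1 and 2612916 with hairpin 2, against 23682993 to 34540691 in the other 6 libraries. Uniquely placed counts outside genes made up 89.7% and 86.6% in those libraries, against 21.7% to 30.1% elsewhere, and 2 IDs without annotation took 32.6% and 22.6% of the counts in genes, against at most 0.122%. A count of 0 allows, at 3 counts, up to 1.77 TMM CPM (CPM after TMM scaling of library sizes) with hairpin 1 and 1.18 with hairpin 2, but only 0.0787 TMM CPM in the hnRNPU control. Hnrnpu itself was at 325 and 373 TMM CPM with hairpins 1 and 2 and at 588 in their control, and did not pass the test with hairpin 2 (log2 fold change −0.66, SE 0.59, adjusted p = 1 by edgeR's quasi-likelihood test with Benjamini-Hochberg adjustment). Bloodlinc stood at 2.19 and 1.75 TMM CPM with its hairpins against 4.46 in their control (log2 fold change −1.18, SE 0.81, adjusted p = 1 by the same test over both hairpins), and at 5.46 TMM CPM with the Bloodlinc vector against 1.26 with the empty vector.

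With hnRNPU hairpin 1, all 10 genes stood at least 4-fold above the hnRNPU control, against 7.68% of all genes tested, and all 10 had their highest level of the 8 libraries there, against 22.5%. Since the genes were chosen on this contrast, nothing is read from these counts. The sizes spread widely. On the log2 scale with a prior count of 2, the differences ran from 3.12 for Oasl2 to 8.87 for Ifit1, with a median of 5.90, beside −0.28 over all genes tested. With Ifit3, which had no control count, set at its bound, the median ratio was 85.9-fold. Ratios below carry a 95% counting interval, which covers counting error only.

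**Figure D1:**
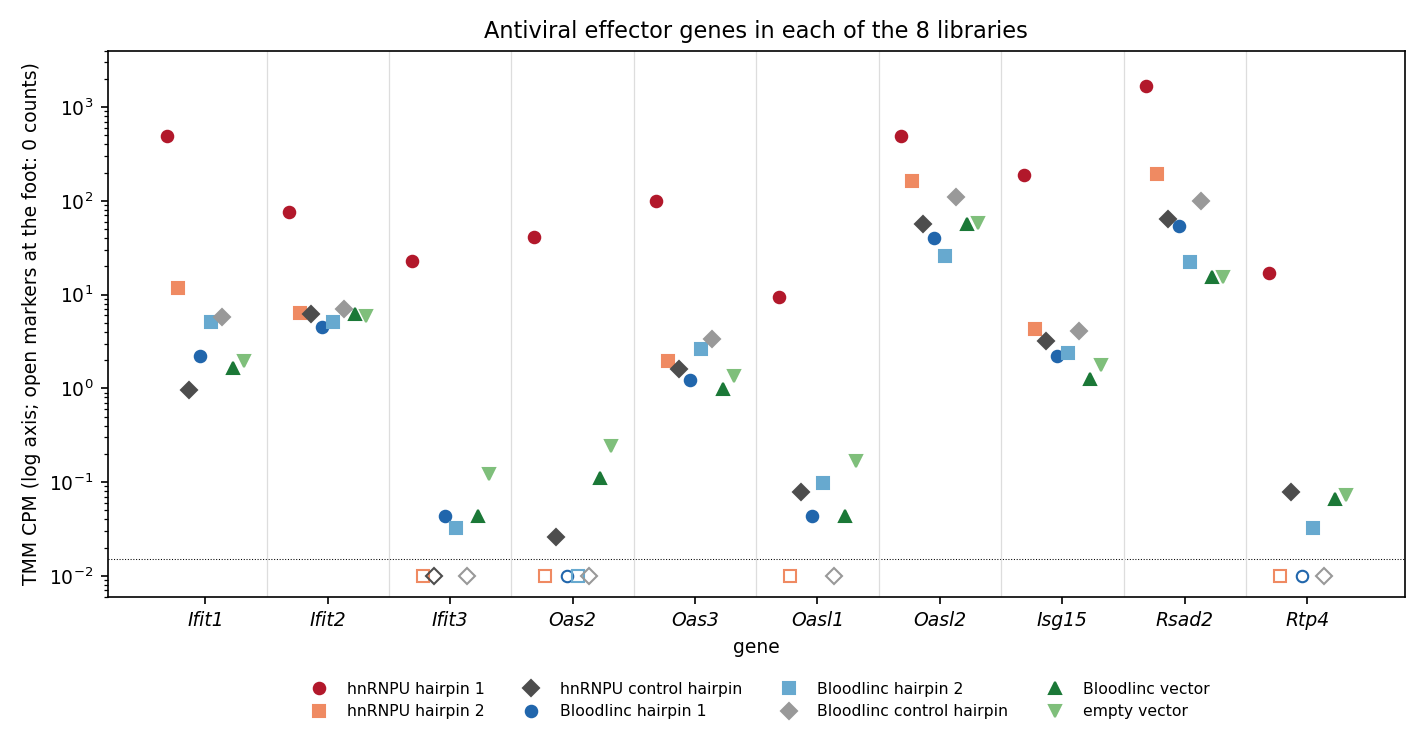
Level of each of the 10 genes in each of the 8 libraries, as TMM CPM on a log axis, 1 point per library, with counts of 0 drawn as open markers at the foot. The hnRNPU hairpin 1 library is the highest for all 10 genes, and hairpin 2 has open markers for Ifit3, Oas2, Oasl1 and Rtp4.

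Among the Ifit genes, Ifit1, whose product binds viral RNA that lacks the cap methylation of host mRNA, had 492 and 11.8 TMM CPM with hnRNPU hairpins 1 and 2, against 0.971 in their control. In the other libraries it had 2.24 and 5.09 TMM CPM with Bloodlinc hairpins 1 and 2 against 5.79 in their control, and 1.64 with the Bloodlinc vector against 1.96 with the empty vector. The hnRNPU control was the lowest of all 8 libraries for this gene, and the Bloodlinc control was 5.97-fold above it (4.08 to 8.90). Hairpin 1 stood 507-fold above the hnRNPU control (365 to 725), and 41.6-fold above hairpin 2 (28.9 to 62.1). A small share of the gene, 7.13% of its 50-base windows, is found in other genes, chiefly Ifit1bl2.

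Ifit2, whose human counterpart binds AU-rich RNA, had 75.7 and 6.30 TMM CPM with hnRNPU hairpins 1 and 2 against 6.19 in their control. It had 4.51 and 5.12 TMM CPM with the Bloodlinc hairpins against 7.07 in their control, and 6.14 with the Bloodlinc vector against 5.88 with the empty vector. Outside hairpin 1 this was the steadiest of the 6 genes detected in every library, with a highest level 1.57 times the lowest. Hairpin 1 stood 12.2-fold above the control (9.78 to 15.2) and 12.003-fold above hairpin 2 (7.11 to 21.6).

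Ifit3, whose human counterpart stabilises IFIT1, was nearly silent elsewhere. It had 39 counts (23.1 TMM CPM) with hairpin 1 and 0 with hairpin 2, against 0 counts in the hnRNPU control. The Bloodlinc hairpins had 1 count each against 0 in their control, and the Bloodlinc vector had 2 against 5 with the empty vector. Hairpin 1 was thus at least 293-fold higher than the control, taken against a floor of 3 control counts. The counting interval of the ratio, which also holds the error of the 39 counts, begins at 227-fold. The value is uncertain because 51.2% of the 50-base windows of Ifit3 are shared with Ifit3b, so the counting could have split reads between them or left them out. Ifit3b itself had 14 and 1 counts with hairpins 1 and 2 (8.27 and 0.394 TMM CPM) against 2 in the hnRNPU control (0.0525 TMM CPM).

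In the Oas family, Oas2 and Oas3 belong to the oligoadenylate synthetases, while Oasl1 and Oasl2 are Oas-like proteins. Oas3 had 99.9 and 1.97 TMM CPM with hnRNPU hairpins 1 and 2 against 1.63 in their control. It had 1.23 and 2.66 TMM CPM with the Bloodlinc hairpins against 3.33 in their control, and 0.983 with the Bloodlinc vector against 1.35 with the empty vector. Hairpin 1 stood 61.4-fold above the control (45.7 to 83.6), and hairpin 2, with 5 counts, lay within the range of the 3 control libraries.

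Oas2 had 69 counts (40.8 TMM CPM) with hairpin 1 and 0 with hairpin 2, against 1 in the hnRNPU control. It had no count in any of the Bloodlinc hairpin libraries or their control, and 5 with the Bloodlinc vector against 10 with the empty vector. The ratio of hairpin 1 to the control was 1555 but rests on that 1 control count, with an interval from 270 to 62285. Oasl1, which in mice represses translation of Irf7, had 16 counts (9.46 TMM CPM) with hairpin 1 and 0 with hairpin 2, against 3 in the hnRNPU control, a ratio of 120 for hairpin 1 (34.4 to 644). It had 1 and 3 counts with the Bloodlinc hairpins against 0 in their control, and 2 with the Bloodlinc vector against 7 with the empty vector. Oasl1 overlaps an antisense gene, Gm13822, and the strand setting of the counting is not given in the sources used here, but Gm13822 had 0 counts in 7 libraries and 1 in the hnRNPU control.

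Oasl2 was the family member with a clear level in every library. It had 487 and 162 TMM CPM with hnRNPU hairpins 1 and 2 against 56.1 in their control. The Bloodlinc hairpins gave 39.8 and 25.6 TMM CPM against 110 in their control, and the Bloodlinc vector 56.0 against 57.4 with the empty vector. Both hnRNPU hairpins lay above every other library. Hairpin 1 stood 8.68-fold above the control (8.003 to 9.41), the smallest ratio of the 10, and 3.01-fold above hairpin 2 (2.67 to 3.39).

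Isg15 had 187 and 4.33 TMM CPM with hnRNPU hairpins 1 and 2 against 3.23 in their control. It had 2.24 and 2.37 TMM CPM with the Bloodlinc hairpins against 4.10 in their control, and 1.25 with the Bloodlinc vector against 1.77 with the empty vector. Outside hairpin 1 no library passed 4.33 TMM CPM. Hairpin 1 stood 58.1-fold above the control (47.0 to 72.1) and 43.2-fold above hairpin 2 (23.8 to 87.5).

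Rsad2 was, with Oasl2, the other gene with a clear level in every library. It had 1690 and 194 TMM CPM with hnRNPU hairpins 1 and 2 against 63.9 in their control. It had 54.1 and 22.2 TMM CPM with the Bloodlinc hairpins against 98.9 in their control, and 15.3 with the Bloodlinc vector against 15.5 with the empty vector. The 3 controls themselves therefore differed, and the empty vector stood at 0.243 times the hnRNPU control (0.222 to 0.265). Hairpin 1 stood 26.4-fold above the hnRNPU control (25.0 to 27.9) and 8.70-fold above hairpin 2 (7.91 to 9.60).

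Rtp4, known as a Golgi chaperone of receptors that is also induced by interferon, had 29 counts (17.1 TMM CPM) with hairpin 1 and 0 with hairpin 2, against 3 in the hnRNPU control. It had 0 and 1 counts with the Bloodlinc hairpins against 0 in their control, and 3 with the Bloodlinc vector against 3 with the empty vector. The ratio of hairpin 1 to the control was 218 (67.5 to 1117). Rtp4 overlaps Masp1 on the opposite strand, which had 0 counts with both hnRNPU hairpins, and shares 11.6% of its 50-base windows with Gm45338.

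Hairpin 2 was not used to choose the genes, so it could be tested, although it shares the control library with hairpin 1. No member passed edgeR's quasi-likelihood test, in which 0.0586% of all genes (9 of 15355) were called at an adjusted p under 0.05. Of the 10 genes, 3 had an unadjusted p under 0.05, against 1.88% of all genes. These were Ifit1, Rsad2 and Oasl2, and the same 3 were at least 2-fold above the control, against 13% of all genes. The member median was 0.15 on the log2 scale beside −0.12 over all genes tested, but it includes 4 genes with 0 counts with hairpin 2, whose differences are set by the prior count. Those 4 entered the test only through hairpin 1, the library used to choose the genes.

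Ifit1 had 30 counts with hairpin 2, where the control's share would have given 2.46 and hairpin 1's share 1248. It was 12.2-fold above the control (counting interval 7.26 to 20.3), with a log2 fold change of 3.60 (SE 0.75, unadjusted p = 0.000273, adjusted p = 0.419 by edgeR's quasi-likelihood test). DESeq2 called it (log2 fold change 3.72, adjusted p = 0.00296), as did edgeR without a filter on low counts (3.57, adjusted p = 0.00164). Over all alternatives its adjusted p ran from 0.00164 to 1, and against the Bloodlinc control its log2 fold change was 1.03. The call therefore depends on the tool and the filter.

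Rsad2 was 3.04-fold above the control with hairpin 2 (2.75 to 3.35), with a log2 fold change of 1.60 (SE 0.67, unadjusted p = 0.0316, adjusted p = 1 by edgeR). Oasl2 was 2.89-fold above it (2.59 to 3.21), with 1.53 (SE 0.58, unadjusted p = 0.0202, adjusted p = 1 by edgeR). For Isg15, Oas3 and Ifit2 the counting intervals of the ratio to the control, 0.653 to 2.49, 0.380 to 2.98 and 0.572 to 1.69, all include 1. Hairpin 2 was above all 3 control libraries for 4 of the 10 genes, Ifit1, Oasl2, Isg15 and Rsad2, against 24.7% of all genes.

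For the other 4 genes, hairpin 2 had no count at all. At the control's share it would have held 0.0666 counts of Oas2, 0.200 of Oasl1 and 0.200 of Rtp4, so a level like the control's was not detectable at this depth. At hairpin 1's share it would have held 58.5 counts of Ifit3, 104 of Oas2, 24.0 of Oasl1 and 43.5 of Rtp4. A level like that of hairpin 1 would thus have been seen. Against a floor of 3 counts with hairpin 2, hairpin 1 was 19.5-fold higher for Ifit3, 34.5-fold for Oas2, 8.002-fold for Oasl1 and 14.504-fold for Rtp4. The counting intervals, which also hold the error of the hairpin 1 counts, begin at 15.1, 27.3, 5.79 and 11.1. In all, 9 of the 10 genes were at least 4-fold higher with hairpin 1 than with hairpin 2, against 6.21% of all genes, in a contrast that contains the library used to choose them.

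**Figure D2:**
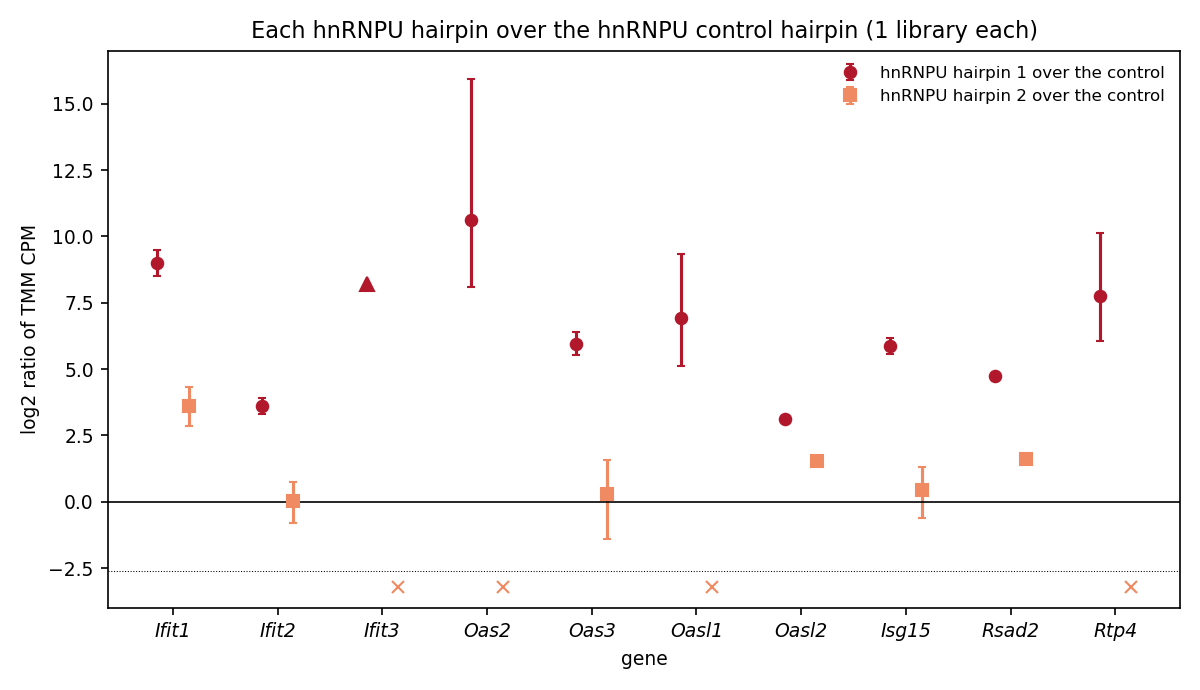
Log2 ratio of TMM CPM of each hnRNPU hairpin library to the hnRNPU control library for the 10 genes, 1 point per gene and hairpin with bars for the 95% counting interval. The triangle is the lower bound of Ifit3 against 3 control counts, and crosses below the dotted line mark 0 counts with hairpin 2, where no ratio is given. Hairpin 1 lies highest for every gene, and the interval of hairpin 2 is above 0 for Ifit1 (ratio 12.2), Oasl2 (2.89) and Rsad2 (3.04) and includes 0 for Ifit2, Oas3 and Isg15.

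The make-up of the effector RNA differed between the hairpins. Per kb of exon, Rsad2 gave 40.3% of the summed TMM CPM of the 10 genes with hairpin 1 and 54.5% with hairpin 2, against 49.1% in the hnRNPU control. Isg15 gave 25.6% and 6.97%, against 14.2%. Ifit1 gave 19.2% and 5.41%, against 1.22%. The other controls differed from that one, with Ifit1 at 4.36% in the Bloodlinc control and 4.20% with the empty vector, near its share with hairpin 2. Oasl2 gave 7.90% with hairpin 1 and 30.9% with hairpin 2, against 29.3% in the hnRNPU control. Over the 3 controls, Oasl2 ranged from 29.3% to 51.3% and Rsad2 from 20.4% to 49.1%. Before division by length, the 10 genes summed to 3123 and 381 TMM CPM with hairpins 1 and 2 against 132 in their control.

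**Figure D3:**
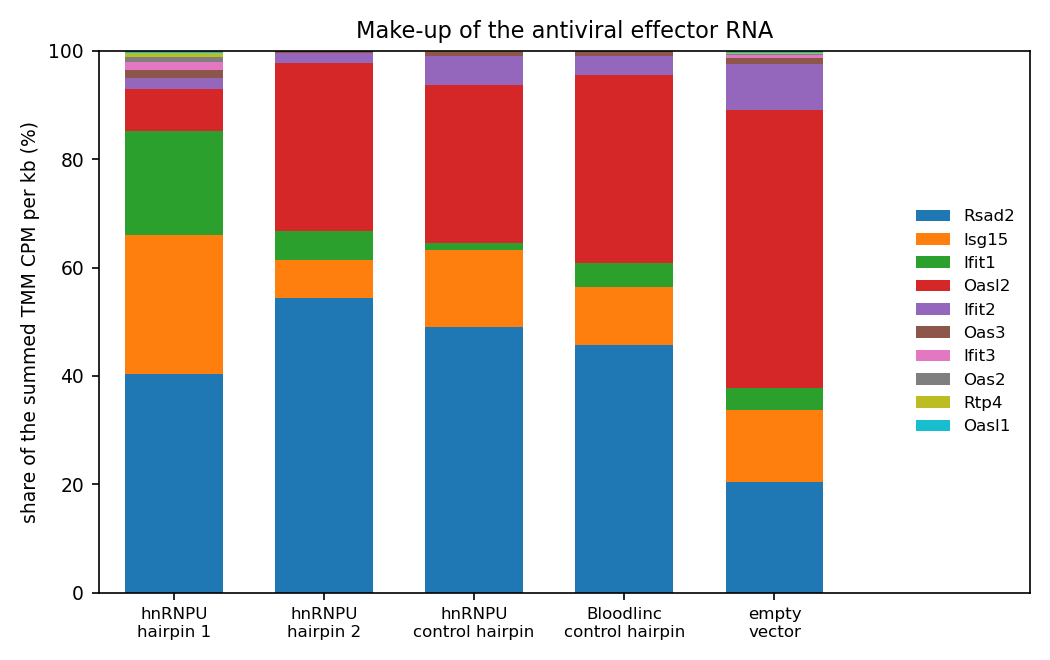
Share of each gene in the summed TMM CPM per kb of the 10 genes, as stacked bars in percent, for both hnRNPU hairpins and the 3 control libraries. Isg15 and Ifit1 take 25.6% and 19.2% with hnRNPU hairpin 1, while Oasl2 takes 30.9% with hairpin 2.

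The Bloodlinc hairpins were compared with their own control hairpin in the fit of all 8 libraries. The spread in that fit came from the 2 hairpins of each target, taken as replicates although they are different hairpins. That includes hnRNPU hairpin 1, the library used to choose the genes, which stood 3.01-fold above hairpin 2 for Oasl2 and 43.2-fold for Isg15. None of the 10 was called by edgeR, where 0.124% of all genes (19 of 15355) passed, and 2 had an unadjusted p under 0.05, against 3.99%. Both hairpins lay below their control for 6 of the 10 genes, Ifit1, Ifit2, Oas3, Oasl2, Isg15 and Rsad2, against 30.7% of all genes. The other 4 had at most 3 counts in each of the 3 libraries.

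Oasl2 averaged 32.7 ± 10.04 TMM CPM with the 2 Bloodlinc hairpins (SD, n = 2) against 110 in the single control. Its log2 fold change was −1.75 (SE 0.53, unadjusted p = 0.00114, adjusted p = 0.313 by edgeR), with adjusted p from 0.275 to 1 over the alternatives. Rsad2 averaged 38.1 ± 22.6 TMM CPM (SD, n = 2) against 98.9, a log2 fold change of −1.38 (SE 0.57, unadjusted p = 0.0171, adjusted p = 0.939 by edgeR). The single Bloodlinc control stood above the other controls for both genes. With the hnRNPU control in its place, the log2 fold changes were −0.78 for Oasl2 and −0.75 for Rsad2.

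The remaining 4 detected genes gave log2 fold changes of −0.83 (Isg15, SE 0.61), −0.77 (Oas3, SE 0.67), −0.65 (Ifit1, SE 0.58) and −0.55 (Ifit2, SE 0.63), each with an adjusted p of 1 by edgeR. Ifit1 and Oas3 turned to 1.92 and 0.27 with the hnRNPU control as comparator. The hairpins themselves were apart for Ifit1, at 2.24 and 5.09 TMM CPM, the second close to the 5.79 of the control.

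With the Bloodlinc vector, 9 of the 10 genes were below the empty vector, while 51.3% of all genes tested were above it. The 9 include Rtp4, with 3 counts in each library, and Oasl2 and Rsad2, with log2 differences of −0.036 and −0.022. The median log2 difference was −0.34 beside 0.0054 over all genes tested, in 1 library each and so with no replicate check. None of the 10 genes was at least 2-fold higher, against 0.371% of all genes tested, and 1, Oasl1, was at least 2-fold lower, against 1.38%. That gene had only 2 counts against 7, and its ratio of 0.258 has an interval from 0.0261 to 1.35. The ratio to the empty vector was 0.975 for Oasl2 (0.922 to 1.03) and 0.984 for Rsad2 (0.883 to 1.10). For Isg15 it was 0.705 (0.490 to 1.01), for Oas3 0.725 (0.479 to 1.09), for Ifit1 0.836 (0.602 to 1.16) and for Ifit2 1.04 (0.876 to 1.24). All 6 intervals include 1.

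**Figure D4:**
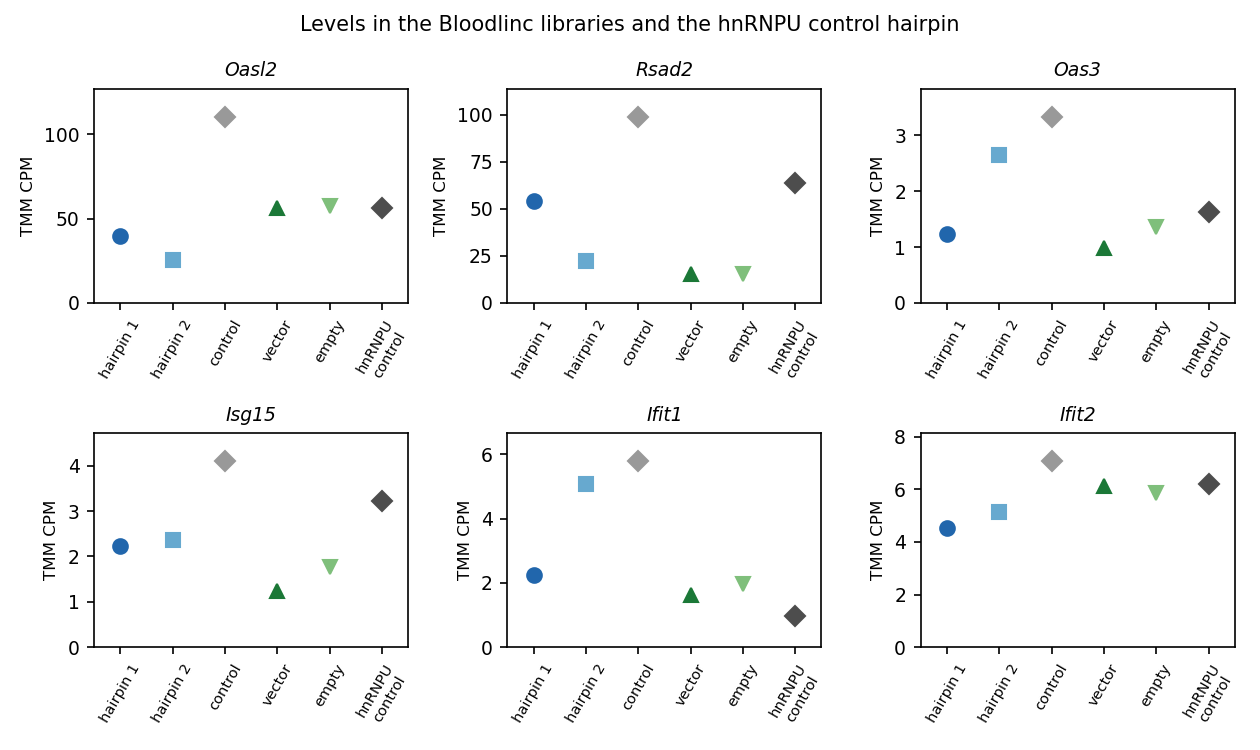
TMM CPM of the 6 genes detected in every library, in the Bloodlinc hairpin, Bloodlinc control, Bloodlinc vector and empty vector libraries, with the hnRNPU control beside them, 1 point per library on axes that start at 0. The Bloodlinc control is the highest point in each panel, at 110 for Oasl2 and 98.9 for Rsad2.

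Other genes of the pathway were read by role, from lists chosen with results of these data known. Of the sensors that start the response, 7 of 13 tested stood at least 4-fold above the control with hnRNPU hairpin 1, against 7.68% of all genes tested. Among them were Ddx58 (RIG-I) at 124 and 10.2 TMM CPM with hairpins 1 and 2 against 2.33, and Ifih1 (MDA5) at 85.1 and 16.5 against 9.76. The 7 sensors also include Tlr9, which had only 2 counts with hairpin 1 against 8 in the control, so its hairpin 1 value is under the floor. Of 21 interferon genes listed, only 11 were matched to an ID, and none of these reached the test. All 11 had 0 counts with both hnRNPU hairpins, and their control held 1 count, of Ifna2. A count of 0 allows up to 1.77 and 1.18 TMM CPM with hairpins 1 and 2, so low levels could not be read at this depth. Receptors and their kinases did not reach 4-fold in any of 9 tested, and had a median log2 difference of 0.93 with hairpin 1. Ifnar2, a subunit of the type I receptor, was at 138 and 61.8 TMM CPM with hairpins 1 and 2 against 67.4.

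Downstream, 5 of 9 transcription factors were at least 4-fold higher with hairpin 1 (median log2 difference 2.76), and the counts of the lists that follow stand against the same 7.68% of all genes. Irf7, which drives interferon genes, was at 122 and 4.33 TMM CPM with hairpins 1 and 2 against 1.68. Relatives of the Ifit and Oas genes reached 4-fold in 7 of 8 tested. Of these, Oas1f had only 2 counts with hairpin 1 and 2 in the control, which is under the floor. Among genes of Isg15 conjugation, 2 of 5 did so, Usp18, which removes Isg15, at 59.1 and 0.394 TMM CPM against 0.393, and the ligase Herc6 at 83.3 and 9.85 against 10.02. The activating enzyme Uba7 was at 272 and 79.2 TMM CPM against 113. Of the other antiviral effectors, 22 of 31 reached 4-fold, for example the GTPase gene Mx1 at 31.9 TMM CPM with hairpin 1 and 0 with hairpin 2 against 0.262. Those 22 include Ifi44, which had 3 counts with hairpin 1 against 0 and so only reached the floor. The 1 interferon-induced chemokine gene tested, Cxcl10, was at 8.27 and 0.788 TMM CPM with hairpins 1 and 2 against 0.210. These levels rest on 14 and 2 counts with hairpins 1 and 2 and 8 in the control, so the hairpin 2 value is under the floor. Of the 76 genes of these lists that were tested, edgeR, DESeq2 and limma-voom called 0 with hairpin 2 and 0 in the Bloodlinc knockdown, and 4 in each comparison had an unadjusted p under 0.05 by edgeR, against 1.88% of all genes with hairpin 2 and 3.99% in the Bloodlinc knockdown.

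The genes whose profile over the 8 libraries was nearest to the median profile of the 10 were, in order, Tgtp2, Trim30d, Igtp, Irgm2, Ifi47, Irf7, Slfn8 and Trim30b, out of 12690 annotated protein-coding candidates. Likeness was the mean absolute difference in log2 TMM CPM after removing each gene's median, and ran from 0.31 for Tgtp2 to 0.56 for Trim30b. These profiles are dominated by the 1 hairpin 1 library, where the member median lay 6.07 above its median over the libraries. Tgtp2, Igtp, Irgm2 and Ifi47 encode interferon-induced GTPases. Among the 10 themselves, Isg15 was nearest to the median profile (0.33) and Rsad2 farthest (1.06).

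Markers of other cell types also differed between the hnRNPU libraries. The 11 granulocyte markers summed to 9333 and 3472 TMM CPM with hairpins 1 and 2 against 1634 in their control. With hairpin 1, 6 of 10 tested were at least 4-fold higher, against 7.68% of all genes. The list was split. S100a8, S100a9, Ltf, Camp, Ngp and Cebpe passed that fold, while log2 differences were −0.02 for Elane, 0.15 for Ctsg, 0.16 for Mpo and 0.21 for Prtn3. The 14 macrophage markers summed to 1548 and 474 TMM CPM against 237, of which Lyz2 gave 1472 and 443 against 216. Csf1r was at 44.9 and 12.9998 TMM CPM against 12.5, Adgre1 at 17.1 and 11.4 against 4.64, and Cd68 at 12.4 and 3.55 against 3.15. The 9 of 14 with 0 counts with hairpin 1, among them Cd163, Mrc1, C1qa and Timd4, had at most 6 counts in the much deeper control, so their absence could not be read at this depth. The 10 markers of plasmacytoid dendritic cells, known as strong makers of interferon, summed to 55.6 and 21.3 TMM CPM against 16.6, with Siglech and 4 others at 0 counts with hairpin 1 and below its floor in the control. With hairpin 1 most of that sum was Bst2 (31.3 and 3.15 TMM CPM against 1.57), which is itself interferon-induced and is also in the list of other antiviral effectors. With hairpin 2 and in the control the largest part was Tcf4 (14.2 and 13.8 TMM CPM against 8.26). The 12 markers of the labelled erythroid cells summed to 107288 and 58284 TMM CPM against 65991. With hairpin 1, 3 of these 12 were at least 2-fold higher than the control, against 20.5% of all genes tested. Among them was Hba-a1 at 9846 and 5317 TMM CPM with hairpins 1 and 2 against 4011. Another 3, Epor, Klf1 and Tfrc, were at least 2-fold lower, against 28.1% of all genes tested. Both counts are near those shares, so nothing is read from them about erythroid markers. Epor, the erythropoietin receptor gene, was at 19.5 and 44.5 TMM CPM against 109. Of the markers of other cell types, those at least 4-fold higher with hairpin 1 were 1 of 3 tested for B cells, 1 of 5 for T and NK cells, 1 of 5 for mast cells and 1 of 8 for megakaryocytes, against 7.68% of all genes, and each had 3 to 11 counts there. Hepatocyte and stromal markers past that fold had 1 or 2 counts with hairpin 1, which is under the floor, so nothing is read from them. The part of these markers, of depth and of counts outside genes in the levels of the antiviral genes was not tested.

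**Figure D5:**
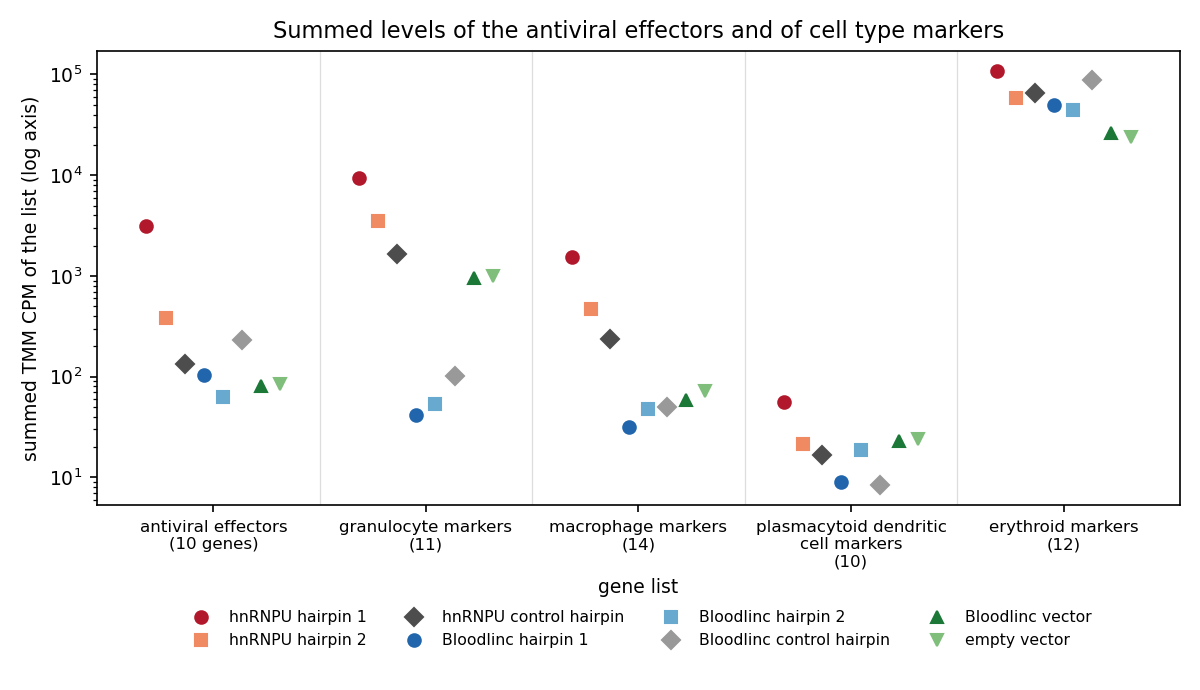
Summed TMM CPM of the 10 antiviral genes and of 4 marker lists in the 8 libraries, on a log axis, 1 point per library. The antiviral sum is 3123 with hnRNPU hairpin 1 against 132 in its control, and the granulocyte sum is 9333 against 1634.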

How the data were processed

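Strand-specific libraries of ribosomal RNA-depleted total RNA were sequenced on a HiSeq2000, per the labels' protocols. The submitters' processing notes name TopHat2 2.0.11, HTSeq and the mm9 build. The annotation release, HTSeq version and counting strand are not given in the sources used here. The authors deposited raw counts per Ensembl gene ID, 1 file per library, without normalisation. Summary entries stayed out of library sizes; their counts outside genes are given in the text.

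Symbols, positions and exon lengths came from an annotation on GRCm38, which paired 87.4% of the IDs with a symbol. It was not used to count reads. TMM CPM gives the levels, and a prior count of 2 was added for log2 differences of 1 library from another. For Bloodlinc, edgeR 4.0.16 (R 4.3.3) fitted all 8 libraries in 6 groups by its quasi-likelihood test after filterByExpr. For hnRNPU hairpin 2, 7 groups were fitted, with the hnRNPU hairpins apart. Residual degrees of freedom were 2 and 1, and single libraries were assumed to vary like the paired ones, which carry different hairpins. Benjamini-Hochberg adjustment ran over the 15355 genes tested, and an adjusted p under 0.05 was called. Ratios carry a 95% exact conditional binomial interval, and floors are 3 counts. The fits were also run on data simulated with the same dispersion for all genes and libraries, and no result here rests on that run. Genes other than the 10 were named as up to 4 per list, and as the 8 most like the members. Those per list had the largest difference with hnRNPU hairpin 1 among genes of at least 5 TMM CPM. Further genes were named after their values were seen. These were Ifna2, Siglech, Oas1f, Tlr9, Ifi44, the macrophage markers at 0, the other granulocyte markers, Ifit3b and the genes overlapping a member.

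Some results are not reported here. The members and lists were chosen with earlier results of these data known. Alternatives were DESeq2 1.42.0, limma-voom (limma 3.58.1), other scalings, filters, prior counts and control libraries, robust estimation, other groupings and each Bloodlinc hairpin left out in turn.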

Additional observations from a re-analysis of the deposited data

How the results depend on the processing

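In the Bloodlinc knockdown, none of the antiviral genes tested was called under any of the 12 alternatives (4 were tested with a filter of 5 CPM in 2 libraries, 6 without the hnRNPU hairpins and 10 otherwise), with at most 2 at an unadjusted p under 0.05, while calls over all genes moved. The reported edgeR counts were 15 higher and 4 lower. They were 4 and 1 with DESeq2 and with robust estimation, 0 and 0 with limma-voom, with a filter of 5 CPM in 2 libraries, with 7 groups and without the hnRNPU hairpins, and 258 and 785 against the hnRNPU control. Settings with no call had 278 to 636 genes at an unadjusted p under 0.05. Without a filter 2 were lower. Leaving out 1 hairpin gave 0 to 53 higher and 0 to 10 lower. With hnRNPU hairpin 2, where edgeR called 9 genes higher and 0 lower, 1 gene was lower with DESeq2 and 1 without a filter, and each of these called 1 of the 10, Ifit1. Against the Bloodlinc control 431 were higher and 125 lower, and against the mean of 3 controls 106 were higher. With hairpin 1, the median log2 difference of 5.90 was 4.94 when scaled by the annotated total, and 6.71 against the empty vector. That total shifted the median of all genes by −0.78 with hairpin 1 and −0.20 with hairpin 2, DESeq2 size factors shifted it by 0.19 and 0.11, and upper quartile scaling by 0.21 and 0.14. In the overexpression pair, 3 genes were at least 2-fold lower with a prior count of 0.5 and 0 with one of 5.

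Single genes changed direction in 6 cases. In the Bloodlinc knockdown against the hnRNPU control, the log2 fold change was 1.92 for Ifit1 and 0.27 for Oas3. With hairpin 2, Ifit2 was −0.0056 without a filter, −0.17 against the Bloodlinc control and −0.013 against 3 controls, and Oas3 was −0.76 against the Bloodlinc control. Of the other single-gene values, 211 kept their direction and side of the threshold, 18 moved in size, all with hairpin 1, and 2, both of Ifit1 with hairpin 2, passed the threshold. The causes were not tested. No paired analysis was possible because the replicate numbers name different hairpins and the controls carry none. The shallow hnRNPU hairpin libraries and single controls limit every value, most of all the 4 genes with at most 3 counts in either control hairpin.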
